A study of Homo sapiens with 2 samples.

Results

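The genes of the DEAD and DEAH box RNA helicases were described in 468 breast cancer cells, an epithelioid human line cultured in L15 medium with serum. Members were the genes whose symbol begins with DDX or DHX and a digit, leaving out the RNA sensors DDX58, DDX60, DDX60L and DHX58. They came to 46 of the 13017 genes listed, 31 named DDX and 15 named DHX. One library came from cells transfected with a Smart Silencer, a mixture of silencing oligonucleotides, against the antisense RNA THAP7-AS1. The other came from si-NC control cells of the same line. Since both samples carry the silencer as their treatment, the genotype label was used to tell them apart. Cells were taken at 48 h. Each group is 1 library, so the differences have neither replicates nor a test and describe these libraries alone. In bulk RNA, fewer cells that express a gene and less RNA per cell cannot be told apart.

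DEAD and DEAH box proteins bind RNA and ATP through a shared helicase core. DEAD box proteins mostly open short duplexes locally, whereas many DEAH box proteins move along a strand and pull apart larger assemblies. Through these actions they drive the rearrangements of the spliceosome, free small nucleolar RNAs from the precursor of ribosomal RNA, load and unload export factors on mRNA, and unwind leaders ahead of the scanning ribosome.

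The family takes its name from motif II of the core, which holds the catalytic aspartate and glutamate and reads aspartate-glutamate-alanine-aspartate (DEAD) or ends in histidine (DEAH). The coding bases of this motif were read from the principal GENCODE release 29 transcript of each member (build GRCh38). Of the 46 members, 25 encode DEAD and 9 DEAH. The others vary it: 4 encode DEVH, 2 each DECD, DEIH and DEVD, and 1 each DDIH and DESD. DDX11 carries DEAH despite its name. The stretches below show every form, the genes whose values stood farthest apart (DDX47, DDX24 and DDX3X), and a pair whose reads are hard to separate (DDX19A and DDX19B). Each runs 5′ to 3′ on the coding strand, and capitals mark the 12 bases of motif II.
DDX47: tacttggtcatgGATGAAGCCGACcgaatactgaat
DDX24: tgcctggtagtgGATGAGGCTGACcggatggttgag
DDX3X: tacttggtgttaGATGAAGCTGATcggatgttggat
DDX19A: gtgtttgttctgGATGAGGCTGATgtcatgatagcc
DDX19B: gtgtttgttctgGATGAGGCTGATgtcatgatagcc
DDX21: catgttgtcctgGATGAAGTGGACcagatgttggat
DDX39B: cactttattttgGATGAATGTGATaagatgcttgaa
DDX52: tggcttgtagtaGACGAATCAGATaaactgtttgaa
DHX37: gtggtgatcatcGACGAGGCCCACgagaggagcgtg
DHX34: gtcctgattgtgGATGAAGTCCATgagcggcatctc
DHX9: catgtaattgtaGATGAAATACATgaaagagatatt
DHX32: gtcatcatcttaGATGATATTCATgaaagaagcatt

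These stretches are exonic, coding and each within 1 exon. On GRCh38 they lie at chr12:12822030-12822065 (DDX47, plus strand), chr14:94060577-94060612 (DDX24, minus), chrX:41345181-41345216 (DDX3X, plus), chr16:70366189-70366224 (DDX19A, plus) and chr16:70329396-70329431 (DDX19B, plus). Those of DDX21 and DHX32 are at chr10:68967116-68967151 (plus) and chr10:125859876-125859911 (minus), and those of DDX39B and DDX52 at chr6:31536507-31536542 and chr17:37626056-37626091, both minus. The remaining ones are at chr12:124971356-124971391 (DHX37, minus), chr19:47355156-47355191 (DHX34, plus) and chr1:182867005-182867040 (DHX9, plus). The stretches of DDX19A and DDX19B are identical letter for letter.

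Expression is given as FPKM (fragments scaled by gene length and by library size), which allows levels to be set side by side between genes. All 46 members averaged 1 FPKM or more. Their means ran from 2.46 FPKM for DDX11 to 73.1 FPKM for DDX1, with a median of 11.6, against a median of 6.81 over the 10925 genes kept at that mean. Together they took 0.402% of the FPKM sum of the knockdown library and 0.400% of that of control. The most abundant members were thus of mixed role: DDX1, the nucleolar DDX21, the multifunctional DHX9 and the splicing coregulator DDX5.

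**Figure D1:**
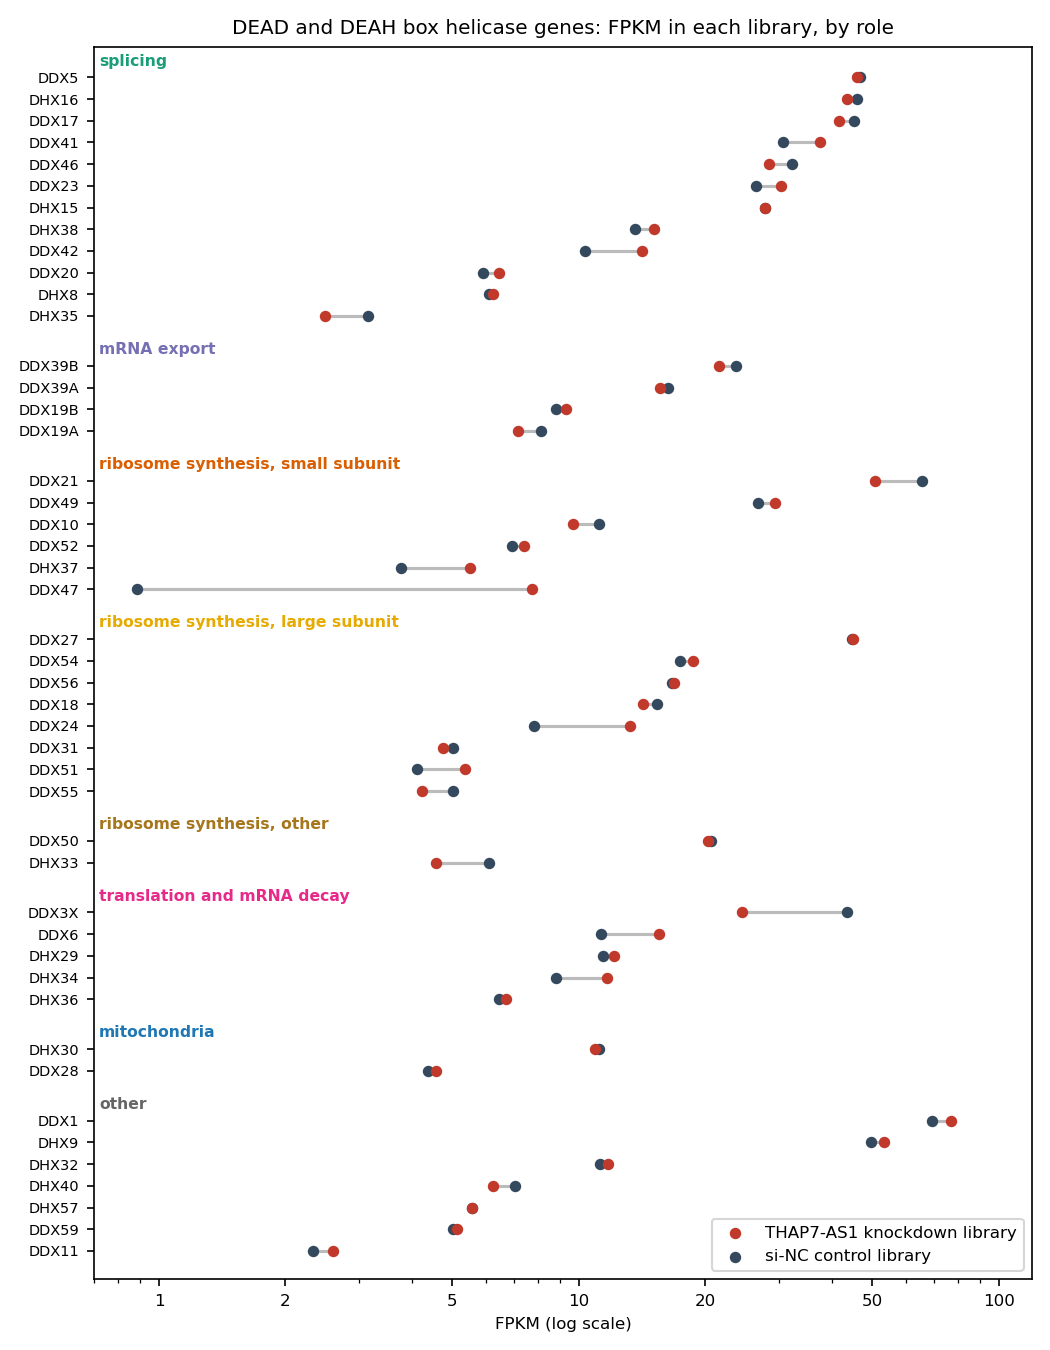
FPKM of each of the 46 helicase genes (rows, grouped by role) in the knockdown library (red) and the control library (dark blue), on a log axis; each point is 1 library and the grey line joins the points of a gene. For most genes the points lie close together, while DDX47, at 7.71 and 0.889 FPKM, DDX24 and DDX3X lie apart.

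Differences were expressed as the log2 ratio of knockdown FPKM + 1 to control FPKM + 1, so every fold below is on the FPKM + 1 scale. Where a pair of FPKM values is given, the knockdown library comes first. Within 1.1-fold were 27 of 46 members, beside 5303 of all 10925 genes kept and 4210 of the 8612 genes in the members' range of mean FPKM. The median log2 ratio was 0.03, against 0.02 over all genes kept. The median absolute log2 ratio was 0.11 for the members and 0.14 for the genes in their range. Above 0 were 26 of 46 members, beside 53.1% of all genes kept. With knockdown, only DDX47 was higher by 2-fold or more, beside 0.604% of all genes, and 0 members were at least 2-fold lower, beside 0.668%. At 1.5-fold, DDX47 and DDX24 were higher (2 of 46, beside 2.98% of all genes) and DDX3X was lower (1 of 46, beside 2.46%). With 0 to 2 of 46 members past each fold, the counts say nothing particular of the family. The counts by role and by list below come from few genes each and are to be read beside the same shares.

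**Figure D2:**
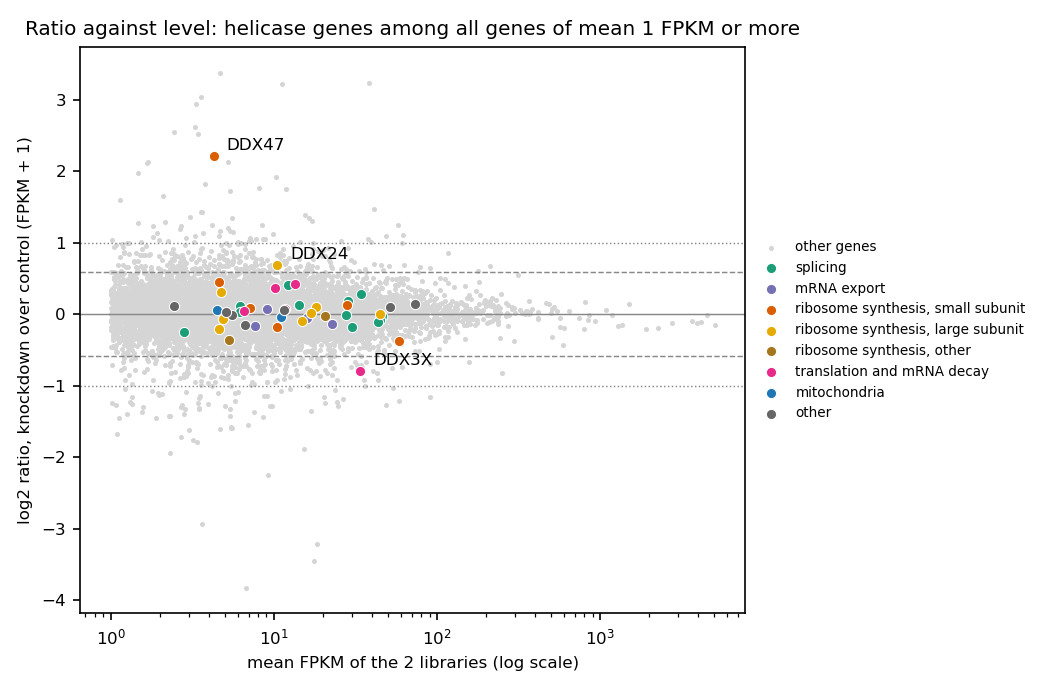
Log2 ratio of knockdown over control (FPKM + 1) against the mean FPKM of both libraries (log axis) for 10925 genes (grey) and the 46 helicase genes, coloured by role; dashed lines mark 1.5-fold and dotted lines 2-fold. DDX47 lies at 2.21, DDX24 at 0.69 and DDX3X at -0.80, and the remaining members lie between the dashed lines.

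Among the helicases of small ribosomal subunit synthesis, 4 of 6 lay above 0 and the median log2 ratio was 0.11. Among genes that averaged 5 FPKM or more, which leaves out DDX47 and DHX37, the median was -0.051. DDX47 (ENSG00000213782.7_3), which acts in early cleavages of the ribosomal RNA precursor, was at 7.71 FPKM with knockdown and 0.889 in control. Its log2 ratio was 2.21, and only 8 of the 10925 genes had a higher one. In the control library it was the lowest of all members.

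DDX47 shares annotated exons with APOLD1, a neighbour on the same strand that encodes an apolipoprotein L domain protein. An annotated APOLD1 transcript of the nonsense-mediated decay class starts upstream and runs through DDX47. It holds 1811 of the 1817 bases of the principal DDX47 transcript (99.7%), across all 12 of its exons. A protein-coding APOLD1 transcript starts 27.7 kb upstream of it and shares none of its exons. APOLD1 was at 0.966 FPKM with knockdown and 5.77 in control (log2 ratio -1.78), opposite to DDX47. The FPKM of both genes summed to 8.68 and 6.66 (log2 ratio 0.34). FPKM is scaled by length, and these 2 overlapping transcripts differ in length (1817 and 2375 bases). A sum of FPKM therefore need not keep fragments that pass from one model to the other, and it does not show the level of either gene. How the authors' quantification divided fragments between these models was not tested, and the ratio of DDX47 is uncertain for that reason.

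**Figure D3:**
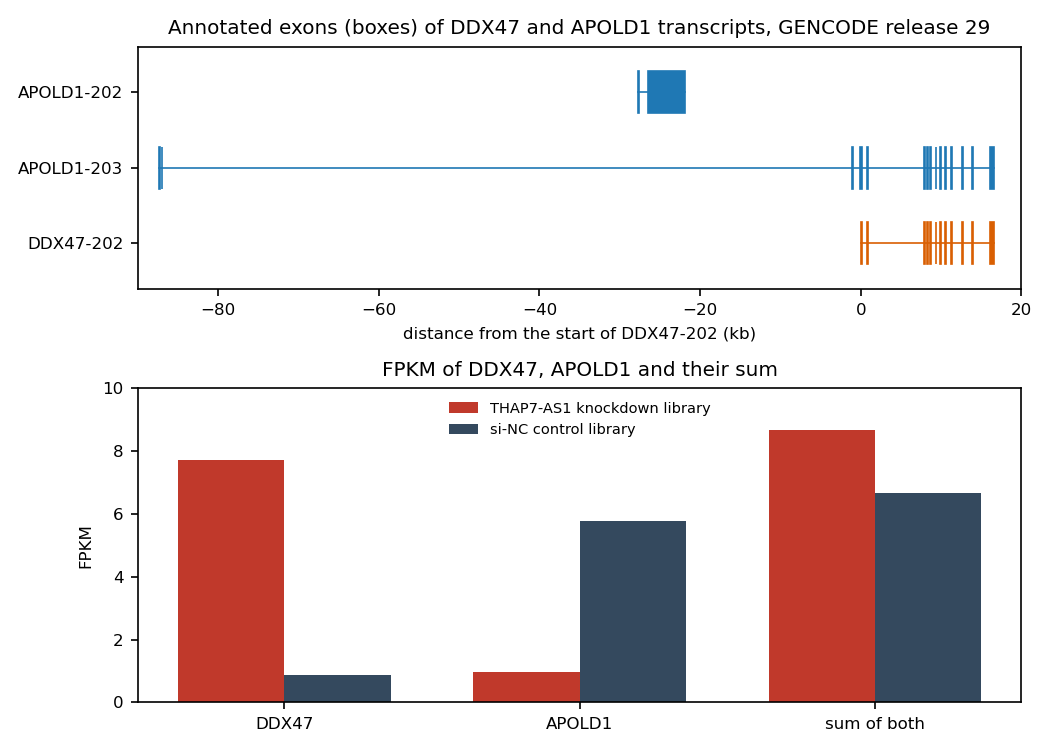
Upper panel, annotated exons (boxes) of a protein-coding APOLD1 transcript, the APOLD1 transcript that runs through DDX47, and the principal DDX47 transcript, by distance in kb from the start of the last; lower panel, FPKM of DDX47, APOLD1 and their sum in the knockdown (red) and control (dark blue) library, 1 library per bar. DDX47 is higher in the knockdown library and APOLD1 in the control library, and their sums are 8.68 and 6.66 FPKM.

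The other small subunit helicases differed less and in both directions. DHX37, the DEAH helicase that frees the U3 small nucleolar RNA, was at 5.51 FPKM with knockdown and 3.77 in control (log2 ratio 0.45). DDX21, which couples transcription and processing of ribosomal RNA, went the other way at 50.6 and 65.6 FPKM (log2 ratio -0.37). DDX10, needed for the U14 small nucleolar RNA to leave, was at 9.69 and 11.2 FPKM. DDX49 was at 29.3 and 26.7 FPKM and DDX52 at 7.41 and 6.95, both within 1.1-fold. Over these 5 genes the level ranged widely, with DDX21 the most abundant in both libraries.

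Of the 8 helicases of large subunit synthesis, 5 lay above 0, and the median log2 ratio was 0.01. DDX24, a nucleolar DEAD box protein related to yeast Mak5, was at 13.2 FPKM with knockdown and 7.84 in control, 1.61-fold higher (log2 ratio 0.69). Of all genes kept, 203 had a higher ratio. No word of 50 bases of its principal transcript occurs in another gene. On the opposite strand OTUB2, at 0.493 and 0.381 FPKM, overlaps 640 of its exon bases, and its part in the difference was not tested. Several other members also overlap listed genes on the opposite strand, some of them more abundant than the member. Examples are EIF2B1 (15.1 and 13.5 FPKM) for DDX55, BCCIP (23.9 and 26.8) for DHX32 and CCDC47 (42.7 and 54.0) for DDX42. The part of these was not tested either. With 5 added in place of 1, the log2 ratio of DDX24 was 0.50, below 1.5-fold. DDX51, which helps to release the U8 small nucleolar RNA, was at 5.36 and 4.12 FPKM (log2 ratio 0.31). DDX55 was at 4.23 and 5.02 FPKM (log2 ratio -0.20). The other 5 were within 1.1-fold, which covers the most abundant of them, DDX27, a partner of the PeBoW complex, at 44.9 and 44.8 FPKM. DDX54 was at 18.7 and 17.4, DDX56 at 16.9 and 16.7, DDX18 at 14.3 and 15.3 and DDX31 at 4.76 and 5.0 FPKM. DDX27 and DDX56 lay so near 0 that their sign changed when the ratios were centred, rescaled or quantile normalized.

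A pair of nucleolar helicases fell outside the subunit classes. DHX33, which promotes transcription of ribosomal DNA, was at 4.57 FPKM with knockdown and 6.11 in control (log2 ratio -0.35). On the same strand it shares 22 exon bases with C1QBP, which was far more abundant at 77.7 and 66.3 FPKM (log2 ratio 0.23). The sum of both had a log2 ratio of 0.18, but it is mostly C1QBP and follows that gene, so it says nothing of DHX33. DDX50, the paralog of DDX21, was at 20.3 and 20.7 FPKM (log2 ratio -0.02). The coding sequences of DDX21 and DDX50 are identical at 69.0% of aligned bases and both encode DEVD, yet DDX21 was the more abundant, 2.84 times the mean FPKM of DDX50, and its log2 ratio was lower by 0.34. Of the principal DDX50 transcript, 10.3% of words of 50 bases also occur in other genes, mainly its pseudogenes. Over all 16 helicases of ribosome synthesis, 9 lay above 0, and their FPKM summed to 257 and 258.

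The 12 helicases of splicing and snRNP assembly were split evenly, 6 above and 6 below 0, with a median log2 ratio of 0.01. Past 1.5-fold were 0 of 12, beside 2.98% of all genes kept higher and 2.46% lower. Several of these helicases act in order through the cycle. DDX46 (Prp5 in yeast), which admits the U2 snRNP to the branch site, was at 28.4 FPKM with knockdown and 32.2 in control. Its log2 ratio was -0.17, and C5orf24, which shares 236 bases of its exons on the same strand, was at 1.55 and 5.41 FPKM. Summed, both genes were at 30.0 and 37.6 FPKM (log2 ratio -0.32), but the sum also carries the difference of C5orf24 (log2 ratio -1.33). The shared bases are 2.56% of the DDX46 exons, so the sum does not describe DDX46 alone. DDX42, also bound to the U2 snRNP, had the largest ratio of the group at 14.1 and 10.4 FPKM (log2 ratio 0.41). DDX23, the Prp28 of the U5 snRNP that exchanges U1 for U6, was at 30.3 and 26.5 FPKM (log2 ratio 0.19).

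The DEAH helicases that act later differed little, apart from DHX35. DHX16 (Prp2), which activates the spliceosome, was at 43.4 FPKM with knockdown and 46.0 in control. DHX38 (Prp16), which remodels it between the catalytic steps, was at 15.1 and 13.6 FPKM, and DHX8 (Prp22), which releases the spliced mRNA, at 6.25 and 6.11. DHX15 (Prp43), which takes the spent complex apart, was at 27.7 and 27.8 FPKM. From DHX8 to DHX16 the level thus spanned a wide range while the ratios stayed between -0.08 and 0.14. DHX35, found in catalytic spliceosomes, was the least abundant at 2.48 and 3.15 FPKM (log2 ratio -0.25), from an estimated 136 and 170 fragments. DDX41, a further spliceosomal helicase, was at 37.5 and 30.7 FPKM (log2 ratio 0.28).

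The coregulators of transcription and splicing DDX5 and DDX17 are paralogs whose coding sequences are identical at 68.3% of aligned bases. DDX5 was at 45.9 FPKM with knockdown and 46.6 in control, and DDX17 at 41.7 and 45.3. Both were within 1.1-fold, with log2 ratios of -0.02 and -0.11. DDX20 (Gemin3), the helicase of the SMN complex that assembles snRNPs, was at 6.47 and 5.90 FPKM (log2 ratio 0.11).

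Of the 4 mRNA export helicases, 3 lay below 0, with a median log2 ratio of -0.09. DDX39B (UAP56), which loads the export adaptor onto spliced mRNA, was at 21.5 FPKM with knockdown and 23.6 in control. Its paralog DDX39A was at 15.6 and 16.3 FPKM. Both encode DECD, and their coding sequences are identical at 80.02% of aligned bases. DDX19A, one of the helicases that strip export factors at the cytoplasmic face of the nuclear pore, was at 7.16 and 8.12 FPKM, and DDX19B at 9.30 and 8.82. The last pair is identical at 95.3% of aligned coding bases, and 62.2% and 40.8% of the words of 50 bases in their principal transcripts recur in another gene, so their opposite signs, -0.16 and 0.07, are uncertain. For DDX39B the share is 95.2%, mainly a readthrough transcript from ATP6V1G2.

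In translation and mRNA decay, 4 of 5 helicases lay above 0, with a median log2 ratio of 0.08, and the exception was the most abundant. DDX3X, which unwinds structured leaders during initiation, was at 24.5 FPKM with knockdown and 43.4 in control. It was 1.74-fold lower (log2 ratio -0.80), and 132 of the 10925 genes had a lower ratio. Of its words of 50 bases, 5.11% occur in other genes. DDX6, which represses translation and activates decapping, was higher in the knockdown library at 15.5 and 11.3 FPKM (log2 ratio 0.43). DHX34, a factor of nonsense-mediated decay, was at 11.6 and 8.82 FPKM (log2 ratio 0.37). DHX29, which helps the small subunit to scan structured leaders, was at 12.1 and 11.4 FPKM, and DHX36, which resolves G-quadruplexes, at 6.72 and 6.45. DDX3X was above DDX6 in both libraries, but by less in the knockdown library.

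The mitochondrial helicases lay near 0. DDX28, which takes part in assembly of the mitochondrial large ribosomal subunit, was at 4.57 FPKM with knockdown and 4.36 in control (log2 ratio 0.05). That ratio rests on few fragments, an estimated 110 and 104. On the opposite strand DUS2, at 3.82 and 3.05 FPKM, overlaps 487 of the DDX28 exon bases, and its part was not tested. DHX30, which works in the same RNA granules, was at 10.9 and 11.2 FPKM (log2 ratio -0.03).

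The 7 remaining members had log2 ratios from -0.153 for DHX40 to 0.149 for DDX1. DDX1, part of the tRNA ligase complex, was at 76.9 FPKM with knockdown and 69.2 in control, the highest member of either. DHX9, which acts on transcripts and on double-stranded RNA, was at 53.4 and 49.6 FPKM. DDX11, a DNA helicase of sister chromatid cohesion, was at 2.59 and 2.32 FPKM, and 40.1% of its words of 50 bases recur in other genes, DDX12P among them. The less studied DHX32, DHX40, DHX57 and DDX59 were at 11.7 and 11.2, 6.24 and 7.05, 5.56 and 5.58, and 5.13 and 5.01 FPKM. For DHX40 the share of recurring words is 24.5%, mainly with its pseudogene.

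Beside the members, 1 list of related helicases and 7 lists of partner genes were examined, with medians from -0.04 to 0.08. RNA helicases without DDX or DHX names, among them DEAD box proteins of the EIF4A genes, had a median log2 ratio of -0.03. Above 0 were 6 of 13. SKIC2, of the cytoplasmic exosome cofactor, was at 14.4 and 11.3 FPKM, the exosome helicase MTREX at 9.45 and 8.38, and the spliceosomal AQR at 3.61 and 4.15. Of 19 spliceosome partners, 14 were above 0, beside 53.1% of all genes kept, with a median of 0.08. Past 1.5-fold were 0 of 19, beside 2.98% of all genes kept higher and 2.46% lower. SF3B2, of the U2 snRNP, was at 71.6 and 51.1 FPKM, SUGP1 at 9.41 and 7.46 and PRPF19 at 45.0 and 38.6. Of 9 genes of the SMN complex, 4 were above 0 with a median of -0.01. GEMIN7 was at 3.96 and 5.86 FPKM, GEMIN8 at 5.31 and 4.63 and GEMIN6 at 9.87 and 9.04.

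Among 14 export partners, 7 were above 0 with a median of 0.01. GLE1, the activator of DDX19 proteins at the pore, was 1.5-fold higher at 19.1 FPKM with knockdown and 12.3 in control, while POLDIP3 was at 14.8 and 18.9 and THOC7 at 36.6 and 31.0. Among 10 decapping and repression partners of DDX6, 3 were above 0 with a median of -0.04. The decapping enzyme DCP2 was at least 2-fold lower, at 3.09 FPKM with knockdown and 8.47 in control (log2 ratio -1.21). The decapping enhancer EDC3 was at 6.06 and 3.71 FPKM (log2 ratio 0.58), and the deadenylase scaffold CNOT1 at 36.1 and 45.2. Of these 3 partners, EDC3 was thus higher and DCP2 and CNOT1 were lower in the knockdown library.

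Of 6 tRNA ligase partners of DDX1, 4 were above 0 with a median of 0.02. FAM98A was at 11.2 and 9.50 FPKM, RTRAF at 13.7 and 11.8 and FAM98B at 8.53 and 8.87. Of 15 nucleolar partners kept, 10 were above 0 with a median of 0.01, and the 3 ratios farthest from 0 in either direction belonged to PINX1 at 8.02 and 9.60 FPKM, RCL1 at 3.64 and 4.27 and BMS1 at 26.0 and 23.1. Of 12 genes of the mitochondrial RNA granule, 7 were above 0 with a median of 0.07. RCC1L was at 6.76 and 4.19 FPKM (log2 ratio 0.58) just below 1.5-fold, SLIRP at 20.2 and 16.6 and MTERF4 at 1.58 and 1.18.

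**Figure D4:**
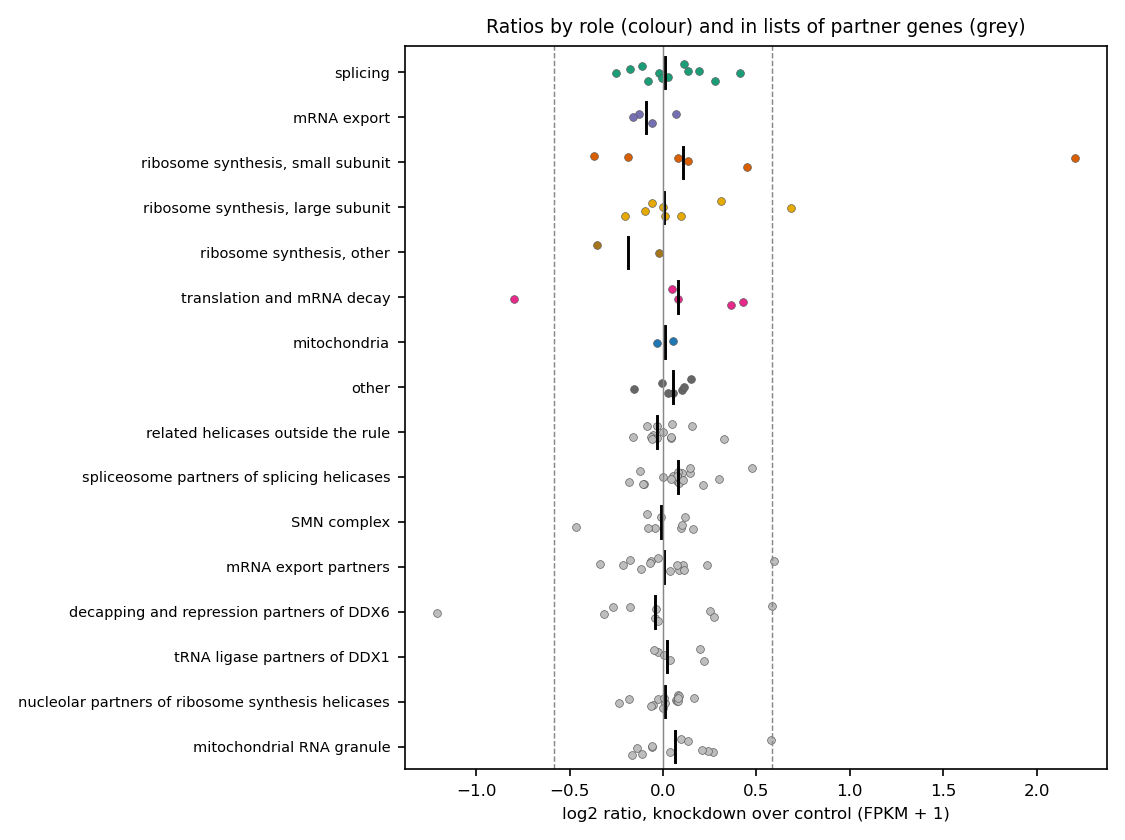
Log2 ratios of knockdown over control (FPKM + 1) for the helicase genes by role (coloured points, 1 per gene) and for lists of related helicases and partner genes (grey points); black bars mark the median of each group and dashed lines 1.5-fold. Medians run from -0.19 to 0.11, and DDX47, DDX24, DDX3X, DCP2 and GLE1 lie at or beyond the dashed lines.

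For the libraries as a whole, the FPKM summed to 213442 in the knockdown and 213888 in the control library. THAP7-AS1 is not analysed here, so the label of the knockdown library could not be checked against the level of its target. THAP7, which overlaps it on the other strand, was at 8.38 and 2.71 FPKM, and strandedness is not given in the sources used here. The epithelial markers EPCAM, KRT8, KRT18 and KRT19 were at 166 FPKM or more in both libraries. EGFR was at 258 and 336 FPKM, KRT5 at 64.0 and 55.6 and CDH1 at 12.4 and 17.1. The fibroblast gene COL1A1 was at 0.866 and 0.874 FPKM. The leukocyte gene PTPRC and the endothelial gene PECAM1 were looked for but had no value among the genes listed, so their levels are not known.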

How the data were processed

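The authors deposited 1 table of FPKM per gene for each library, per the file headers. Per the submitters' processing notes, cutadapt, HISAT2 2.0.5, StringTie and the build hg19 were used. Other versions, the annotation and the strandedness were not given in the sources used here. Symbols came from a table of gene identifiers, which named 12746 of 13017 genes. GENCODE release 29, on GRCh38, was used by identifier for exons and transcripts, and matched all 46 members. Words are all runs of 50 bases in the principal transcript, sought in the transcripts of other genes.

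Ratios used a pseudocount of 1 and the 10925 genes that averaged 1 FPKM or more. Motif II was the match 70 to 130 residues after motif I, or the nearest farther one. All members were named, and the 3 genes of each other list with the largest absolute ratio. Roles were assigned from known function. Members and lists were chosen with earlier results of these data known. The ratio computation was tested on simulated libraries. Work was done in Python 3.11.15 with Biopython 1.88, pandas 2.3.3, numpy 2.4.6, matplotlib 3.10.9 and scipy 1.17.1.

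Counts are not part of these tables. For genes with 1 annotated transcript, values times length between 80 and 100 had medians of 89.7 in the knockdown and 91.4 in the control library (14 and 10 genes). The window was a setting, and it bounds these medians and the depth taken from them. Read as the value of 1 fragment, the medians give an estimated 11100000 and 10900000 fragments. The counting error of a member's log2 ratio without the added 1 would then be 0.027 to 0.22, with fragments reckoned from all annotated exons. That length can exceed the principal transcript, with 15892 against 5036 bases for DDX3X, so fragments may be overestimated and the errors too small.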

Additional observations from a re-analysis of the deposited data

How the results depend on the processing

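The count of members at least 2-fold higher, 1, became 0 with a mean of at least 5 FPKM, which leaves 38 members without DDX47. Same-strand exons shared with another listed gene, or over 10% of words shared with other genes, were found for 9 members. Without these 9 the count also became 0, a setting chosen after seeing the data. The count at least 1.5-fold higher, 2, became 1 under both of these and with a pseudocount of 5, which shrinks the ratios of low genes. The counts lower, 1 at 1.5-fold and 0 at 2-fold, were the same in all settings tried. The median of small subunit helicases, 0.11, became -0.051 at that mean, over fewer genes, and the mean over the members was 0.39. The median over all members ran from 0.01 to 0.07 over the settings, the mean included. Of 230 values of single members under another pseudocount or scaling, 223 moved by at most 0.1 and 7 by more. The log2 ratio of DDX47 was 2.98 with a pseudocount of 0.1 and 1.11 with 5. Depth limits the members with the fewest estimated fragments most, and no setting measures the spread between cultures.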
